A study of Homo sapiens with 12 samples.

Results

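The 10 genes described here, DROSHA, DGCR8, XPO5, DICER1, TARBP2, AGO1, AGO2, AGO3, AGO4 and TNRC6A, encode the core machinery that makes microRNAs (miRNAs) and uses them. They were chosen by name, and each had 1 row among the 58302 genes of the deposited table. RNA was sequenced from 12 libraries, 3 of each of 4 lines. TPC1 is a cell line from a human papillary thyroid carcinoma with a wild-type (wt) genotype and no treatment. D11, WB1 and TD5 are clones of TPC1 with the genotype DICER (+/-), made by transient transfection of a CRISPR/Cas9 plasmid that cuts DICER1. Each mutant line grew from a single sorted cell, so each is 1 clone that kept 1 wild-type DICER1 allele, and the TPC1 libraries come from the parental line. All 4 lines share the TPC1 background and the same medium. The study's methods describe its experiments in general as independently repeated, but no sample label says that the 3 libraries of a line came from separate cultures. The p-values measure the spread between these libraries, part of which may be technical.

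miRNA genes are first copied into long primary transcripts that carry hairpins. DROSHA and its partner DGCR8 cut the hairpins out in the nucleus, XPO5 carries them to the cytoplasm, and DICER1 with its partner TARBP2 trims them to short duplexes. One strand is loaded into an Argonaute protein, which finds matching messenger RNAs, and TNRC6 proteins bound to Argonaute recruit the enzymes that shorten the poly(A) tail and block translation. In human cells AGO2 is the best known slicer of perfectly paired targets. Loss of one DICER1 allele is a known predisposition to thyroid tumours and other tumours.

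The sequence that made the clones is shown because it places the cut in DICER1. The guide matched GRCh38 at chr14:95115685-95115707 on the plus strand, opposite to DICER1, and the protospacer-adjacent motif that Cas9 needs is in capitals. The site lies in exon 11 of the 27 exons of the MANE Select transcript (chromosome 14, 95115667 to 95115821, 155 bp), and the cut falls between positions 95115701 and 95115702.
DICER1 guide: gccgtgttgattgtgactcgTGG

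Of the 10 genes, AGO2 was not searched for miRNA hairpins. Among the others, 2 carry hairpins on their own strand, with the mature sequences in RefSeq (GRCh38.p14). The seed, bases 2 to 8, is in capitals and differs in all 5. The hairpins of MIR3618 and MIR1306 lie in an exon of DGCR8 (chromosome 22). The DROSHA and DGCR8 complex is known to cut hairpins in the DGCR8 messenger RNA itself. MIR3173 lies within DICER1 (chromosome 14, 95137919 to 95137986) but not in an exon of its MANE Select transcript.
hsa-miR-3618: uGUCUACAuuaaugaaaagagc
hsa-miR-1306-5p: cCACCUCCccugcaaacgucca
hsa-miR-1306-3p: aCGUUGGCucugguggug
hsa-miR-3173-5p: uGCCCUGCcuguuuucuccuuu
hsa-miR-3173-3p: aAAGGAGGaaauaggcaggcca

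Values are reads per gene scaled by the authors to 20000000 per library, called scaled reads below. They rested on an estimated 12700000 to 21020000 reads per library, and 3 reads corresponded to 2.85 to 4.72 scaled reads. Counting error was thus small for all 10 genes. It was 1.85% to 7.53% of the value of a single library, averaged over the 3 libraries of a line. Of the thyroid markers reported here, PAX8 stood at 7248 to 9879 scaled reads and TG at 11 to 27, FOXE1 averaged 294 in TPC1 and 117 to 143 in the clones, and TSHR, SLC5A5 and NKX2-1 were listed at 0 in every library. KRT8 and KRT18 were high (5237 or more), KRT19, EPCAM and CDH1 were at 6 or below, the leukocyte and endothelial markers were at 7 or below, COL1A1 stood at 48 to 97, and the other fibroblast markers were at 2 or below. In such bulk libraries fewer expressing cells and less RNA per cell cannot be told apart. Changes are log2 fold changes against TPC1 of values per 1000000 plus 1, with a standard error (SE) and an adjusted p from 1 limma model of all 16027 genes that passed the filter on low values. All 10 genes passed it. The clones were compared with the same 3 TPC1 libraries, so the 3 comparisons are not independent.

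The genes that passed against TPC1 were not the same in each clone, which is no test between clones. That test is given further below. In D11, 6 of the 10 genes passed an adjusted p of 0.05. AGO2, AGO3, AGO4 and TNRC6A were higher, 4 of 10 where 19.9% of all genes were higher, and DROSHA and TARBP2 were lower, 2 of 10 where 13.4% were lower. In WB1, 6 genes passed as well. AGO3, AGO4 and TNRC6A were higher, 3 of 10 beside 18.6% of all genes, and DICER1, XPO5 and AGO1 were lower, 3 of 10 beside 12.3%. In TD5 only DICER1 passed, and it was lower. That is 1 of 10 beside 6.57% of all genes lower, and 0 of 10 beside 5.32% higher.

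Most of these changes were small. A change of at least 1.5-fold beside the adjusted p was seen for DICER1 in TD5 and for 0 of the 10 genes in D11 and 0 in WB1. Over all genes 2.6%, 4.84% and 4.99% passed both in TD5, D11 and WB1. By limma at an unadjusted p under 0.05, 7 of the 10 genes passed in D11, 7 in WB1 and 2 in TD5, beside 44.6%, 42.7% and 27.1% of all genes. The median log2 fold change of the 10 genes was 0.03 in D11, −0.03 in WB1 and −0.01 in TD5, beside 0.05, 0.06 and 0.00 over all genes tested. Over the 4 lines together, the F-test of the same model called 6 of the 10 genes (DICER1, TARBP2, AGO1, AGO2, AGO4 and TNRC6A) and 44.6% of all genes. The counts depended on single libraries, for the 10 genes and for all genes. With all libraries 5329, 4956 and 1906 of 16027 genes passed in D11, WB1 and TD5. Without TPC1 replicate 3 or D11 replicate 3, 3 of the 10 genes passed in D11. Over all genes 3188 of 15971 and 3265 of 15983 did so. Without TPC1 replicate 2 or WB1 replicate 3, 3 of the 10 passed in WB1, beside 3818 of 15992 and 4493 of 15940. Without TPC1 replicate 3, 2 of the 10 passed in TD5, beside 1012 of 15971. The F-test called 3 without D11 replicate 3.

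**Figure D1:**
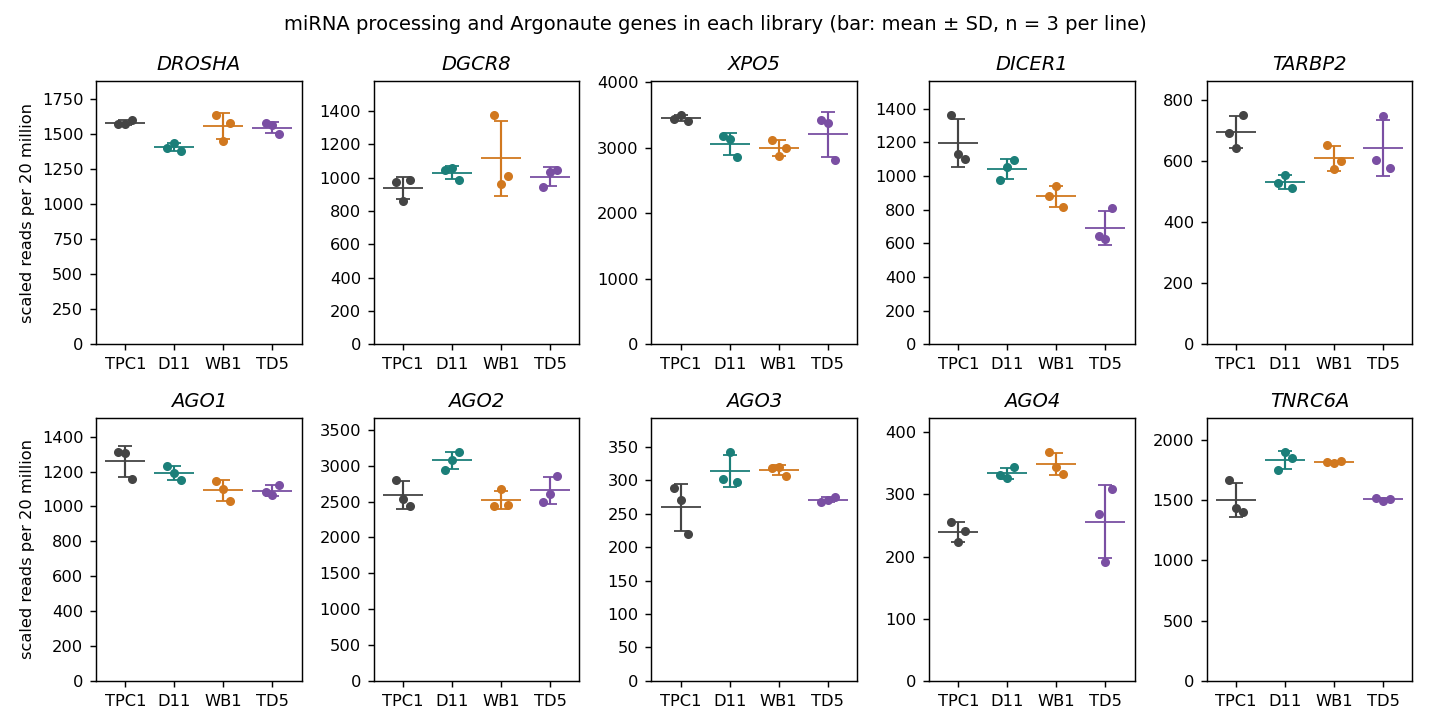
Scaled reads in each of the 12 libraries for the 10 genes, with 1 panel per gene, 1 point per library, a horizontal line at the mean of each line and bars of 1 SD (n = 3). The DICER1 points of all 3 clones lie below the TPC1 points, while AGO4 and TNRC6A stand above TPC1 in D11 and WB1 but not in TD5.

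The plot of values by library shows how far the groups separated. The 3 D11 libraries did not overlap the 3 TPC1 libraries for 9 of the 10 genes (5 higher and 4 lower), beside 50.6% of all genes tested. For WB1 this held for 6 of the 10 (3 higher and 3 lower), beside 45.3%, and for TD5 for 2 of the 10, DICER1 and AGO1, both lower, beside 26.5%. DICER1 was the 1 gene of the 10 with all 9 clone libraries below all 3 TPC1 libraries, which 6.51% of all genes also showed.

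DICER1 (ENSG00000100697, chromosome 14, 95086228 to 95158010, minus strand, GRCh38) encodes the enzyme that the clones lack in part. In TPC1 the 3 libraries gave 1360, 1129 and 1101 scaled reads, followed by 977, 1051 and 1093 in D11. WB1 gave 881, 939 and 815, and TD5 gave 643, 627 and 809. The lowest TPC1 library, at 1101, stood just above the highest D11 library, at 1093, while WB1 and TD5 lay well below. DICER1 fell by 0.43 on the log2 scale in WB1 (SE 0.10, adjusted p = 0.00404) and by 0.77 in TD5 (SE 0.10, adjusted p = 9.02e-05). The D11 difference of −0.19 (SE 0.10, 95% interval −0.40 to 0.01, adjusted p = 0.138) did not pass. It passed with median-of-ratios scaling (−0.25, adjusted p = 0.0456), after a correction for GC content (−0.41, adjusted p = 0.000209) and after one for transcript length (−0.36, adjusted p = 0.00196). The WB1 and TD5 calls held under all 23 alternatives tried. Reads of the mutant and of the wild-type allele cannot be told apart in these values.

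Other rows share the DICER1 locus. DICER1-AS1, a noncoding gene on the opposite strand that overlaps it by 366 bp, had 6 to 10 scaled reads in TPC1, 11 to 20 in D11, 13 to 16 in WB1 and 9 to 21 in TD5. These levels lay below the filter and were not tested. MIR3173 was listed at 0 in all 12 libraries. The libraries were made from messenger RNA, so mature miRNAs were not measured.

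DROSHA (ENSG00000113360, chromosome 5, 31400494 to 31532196), the nuclear RNase of the pathway, was lower in D11. TPC1 had 1575, 1572 and 1601 scaled reads and D11 had 1404, 1440 and 1381. WB1 had 1635, 1454 and 1583, and TD5 had 1579, 1564 and 1500. The D11 libraries all lay below TPC1, and the other clones overlapped it. The D11 change was −0.17 (SE 0.06, adjusted p = 0.0408), beside −0.02 for WB1 (adjusted p = 0.777) and −0.03 for TD5 (adjusted p = 0.784). The D11 call was lost when any 1 of the 6 TPC1 and D11 libraries was left out (−0.18 to −0.15, adjusted p = 0.0699 to 0.13). It was also lost without a filter on low values (adjusted p = 0.0608), with the replicate number as a block (adjusted p = 0.059) and with library sums that leave out the mitochondrially encoded genes (−0.16, adjusted p = 0.0527), while the GC and length corrections took DROSHA to −0.25 and −0.28.

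DGCR8 (ENSG00000128191, chromosome 22, 20080221 to 20111877), which anchors DROSHA on the hairpin, had 971, 860 and 983 scaled reads in TPC1 and 1043, 1060 and 987 in D11. WB1 had 1374, 964 and 1012, and TD5 had 942, 1034 and 1044. The D11 libraries lay just above TPC1, and 1 library of WB1 stood far above all others. The differences were 0.13 in D11 (SE 0.10, adjusted p = 0.324), 0.23 in WB1 (SE 0.10, adjusted p = 0.0962) and 0.10 in TD5 (SE 0.10, adjusted p = 0.58). The WB1 difference passed after the GC correction (0.28, adjusted p = 0.0419) and without WB1 replicate 2 (0.33, adjusted p = 0.0402). It rested on WB1 replicate 1, the high library, without which it was 0.08 (adjusted p = 0.521). No other alternative gave a call for DGCR8, apart from the GC correction joined with a replicate block.

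MIR1306, the hairpin row within the DGCR8 exon, had few reads. TPC1 had 43, 34 and 33 scaled reads, D11 had 49, 58 and 54, WB1 had 69, 49 and 79, and TD5 had 41, 62 and 67. All D11 and WB1 libraries were above TPC1. MIR1306 rose in WB1 (0.58, SE 0.16, adjusted p = 0.0101), and stood at 0.38 in D11 (SE 0.16, adjusted p = 0.0678) and 0.42 in TD5 (SE 0.16, adjusted p = 0.0868). Without TD5 replicate 1 it passed in D11 (0.38, adjusted p = 0.0454) and in TD5 (0.58, adjusted p = 0.0334), and after the GC correction likewise (0.49, adjusted p = 0.0213, and 0.47, adjusted p = 0.0359). With D11 and TPC1 alone in the model MIR1306 also passed in D11 (adjusted p = 0.029), and a pseudocount of 4 took the WB1 value to 0.32. MIR3618 had 12 to 42 scaled reads and adjusted p-values of 0.549 to 0.778. These rows lie inside a DGCR8 exon in the same direction, and the sources used here do not give how reads were divided between them and DGCR8.

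TRMT2A, a transfer RNA methyltransferase gene on the opposite strand, overlaps the DGCR8 span by 3 bp. It was lower in D11 (−0.24, SE 0.07, adjusted p = 0.023), in WB1 (−0.32, SE 0.07, adjusted p = 0.00449) and in TD5 (−0.25, SE 0.07, adjusted p = 0.0413). The D11 call was lost without TPC1 replicate 3, D11 replicate 1 or D11 replicate 3 (−0.24 to −0.19, adjusted p = 0.056 to 0.107). The TD5 call was lost without any 1 of 8 libraries (TPC1 replicates 1 and 3, all of D11, WB1 replicate 2, TD5 replicates 1 and 3), with an adjusted p of 0.0512 to 0.167. It was also lost with the replicate block (adjusted p = 0.0589), without a filter (adjusted p = 0.0658) and with TD5 and TPC1 alone in the model (adjusted p = 0.102). The GC correction ended the D11 call of TRMT2A (−0.12, adjusted p = 0.141) and took the WB1 value to −0.20 (adjusted p = 0.0128). Also tested were AC006547.2, which shares 1055 bp with DGCR8, AC067931.1, which shares 671 bp with AGO2, and AL138787.2, which shares 21522 bp with AGO3. None of them had a call in any clone in the main model (adjusted p = 0.27 to 0.954).

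XPO5 (ENSG00000124571, chromosome 6, 43522334 to 43576038), the exporter of hairpin precursors, had the highest level per length of the 10 genes. TPC1 had 3446, 3494 and 3410 scaled reads, D11 had 3173, 3132 and 2863, WB1 had 3120, 2874 and 3000, and TD5 had 3429, 3383 and 2812. D11 and WB1 lay wholly below TPC1, and TD5 overlapped it through 1 library. XPO5 fell by 0.20 on the log2 scale in WB1 (SE 0.07, adjusted p = 0.0393). It stood at −0.18 in D11 (SE 0.07, adjusted p = 0.065) and at −0.11 in TD5 (SE 0.07, adjusted p = 0.341). The WB1 call was lost without any 1 of 6 libraries (the 3 of TPC1, D11 replicate 2, WB1 replicates 2 and 3), with an adjusted p of 0.0506 to 0.137, and without a filter (adjusted p = 0.0817). The D11 difference passed with median-of-ratios scaling (−0.23, adjusted p = 0.0214), after the GC correction (−0.20, adjusted p = 0.0181), after the length correction (−0.28, adjusted p = 0.0127), with D11 and TPC1 alone in the model (−0.18, adjusted p = 0.0186) and without TD5 replicate 3 (−0.18, adjusted p = 0.0175). POLR1C, an RNA polymerase subunit gene on the opposite strand, shares 40086 bp with XPO5 and had no call in any clone (−0.15, −0.10 and −0.15 in D11, WB1 and TD5).

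TARBP2 (ENSG00000139546, chromosome 12, 53500921 to 53506431), the double-stranded RNA binding partner of DICER1, was lower in D11, the clone in which DICER1 differed least. TPC1 had 691, 644 and 750 scaled reads and D11 had 527, 555 and 512. WB1 had 654, 574 and 599, and TD5 had 604, 748 and 578. The D11 libraries all lay below TPC1, while WB1 and TD5 overlapped it. TARBP2 fell by 0.37 on the log2 scale in D11 (SE 0.09, adjusted p = 0.00715), a call kept under all 23 alternatives. The values were −0.18 in WB1 (SE 0.09, adjusted p = 0.142) and −0.11 in TD5 (SE 0.09, adjusted p = 0.473). The difference between TD5 and D11 was 0.26 (adjusted p = 0.0551) and that between WB1 and D11 was 0.19 (adjusted p = 0.288), so the D11 value was not shown to differ from the other clones.

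The 4 Argonaute genes, which encode the proteins that hold the miRNA, did not move together. AGO4, AGO1 and AGO3 are neighbours in tandem on the plus strand of chromosome 1, at 35808016 to 35857890, 35869808 to 35930532 and 35930718 to 36072500, and AGO2 lies on chromosome 8 (140520156 to 140635633). The paralogs are alike in sequence, and reads that fit more than 1 of them may have been lost or misassigned.

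AGO4 (ENSG00000134698) had 255, 223 and 241 scaled reads in TPC1 against 331, 327 and 344 for D11. WB1 gave 368, 344 and 333, and TD5 gave 268, 192 and 309. D11 and WB1 lay wholly above TPC1, and the TD5 libraries fell on both sides of it. AGO4 rose in D11 (0.45, SE 0.12, adjusted p = 0.0118) and in WB1 (0.50, SE 0.12, adjusted p = 0.00625), and both calls held under all 23 alternatives. In TD5 the difference was 0.07 (SE 0.12, 95% interval −0.19 to 0.33, adjusted p = 0.78).

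AGO3 (ENSG00000126070) had 288, 270 and 220 scaled reads in TPC1 against 302, 342 and 298 for D11. WB1 gave 318, 320 and 306, and TD5 gave 268, 270 and 275. The D11 and WB1 libraries were all above TPC1, by a narrow margin for D11 (298 against 288), and TD5 lay within the TPC1 range. The calls sat at the threshold, with 0.26 in D11 (SE 0.10, adjusted p = 0.048) and 0.27 in WB1 (SE 0.10, adjusted p = 0.0468). TD5 stood at 0.07 (SE 0.10, adjusted p = 0.719). Both calls were lost without any 1 of 9 libraries (all but TPC1 replicate 1 and TD5 replicates 2 and 3), with an adjusted p of up to 0.236 in D11 and 0.234 in WB1. Without TPC1 replicate 3 the values were 0.16 in both. After the GC correction AGO3 stood at 0.01 (adjusted p = 0.943) and 0.06 (adjusted p = 0.671), and after the length correction at 0.06 in both (adjusted p = 0.646 and 0.623). Both calls were lost as well without a filter, with only the 2 lines compared in the model, with the replicate block and with median-of-ratios scaling (adjusted p = 0.0528 to 0.0972), and the D11 call with a pseudocount of 4 (adjusted p = 0.0504). AGO3 had the lowest transcript GC content of the 10 genes, 38.9%.

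AGO2 (ENSG00000123908), the slicer and the Argonaute with the most reads, had 2802, 2528 and 2438 scaled reads in TPC1 and 2942, 3085 and 3189 in D11. WB1 had 2441, 2672 and 2451, and TD5 had 2495, 2607 and 2861. The D11 libraries were above all TPC1 libraries, and WB1 and TD5 overlapped them. AGO2 rose in D11 (0.25, SE 0.07, adjusted p = 0.0119), and stood at −0.04 in WB1 (SE 0.07, adjusted p = 0.704) and 0.04 in TD5 (SE 0.07, adjusted p = 0.792). The D11 call was lost without TPC1 replicate 3 or D11 replicate 3 (0.20 to 0.22, adjusted p = 0.0583 to 0.0621) and after the length correction (0.06, adjusted p = 0.4), and with the GC correction and the replicate block together (0.18, adjusted p = 0.056). With the length correction AGO2 was lower in WB1 (−0.22, adjusted p = 0.00497).

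AGO1 (ENSG00000092847) had 1312, 1305 and 1157 scaled reads in TPC1 against 1234, 1190 and 1154 for D11. WB1 gave 1147, 1098 and 1031, and TD5 gave 1081, 1068 and 1124. WB1 and TD5 lay below all TPC1 libraries and D11 overlapped them. AGO1 fell by 0.20 on the log2 scale in WB1 (SE 0.07, adjusted p = 0.034). In TD5 the difference was of the same size, −0.20 (SE 0.07, adjusted p = 0.0644), and in D11 it was −0.07 (SE 0.07, adjusted p = 0.411). The WB1 call was lost without TPC1 replicate 1 or 2 or WB1 replicate 2 or 3 (−0.20 to −0.16, adjusted p = 0.0733 to 0.117), without a filter (adjusted p = 0.0544) and with WB1 and TPC1 alone in the model (adjusted p = 0.0524), and the length correction took it to −0.38. The TD5 difference passed without TPC1 replicate 3 (−0.26, adjusted p = 0.0371). It also passed in TD5 with median-of-ratios scaling (−0.21, adjusted p = 0.0452) and the GC correction (−0.20, adjusted p = 0.0187), and in D11 with the length correction (−0.26, adjusted p = 0.0078).

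TNRC6A (ENSG00000090905, chromosome 16, 24610209 to 24827632) encodes GW182, the scaffold that links Argonaute to the silencing enzymes. TPC1 had 1665, 1433 and 1403 scaled reads, D11 had 1748, 1899 and 1851, WB1 had 1815, 1808 and 1828, and TD5 had 1520, 1495 and 1507. Every D11 and WB1 library was above every TPC1 library, and TD5 lay within the TPC1 range. TNRC6A rose in D11 (0.29, SE 0.07, adjusted p = 0.0042) and in WB1 (0.28, SE 0.07, adjusted p = 0.00537). It stood at 0.01 in TD5 (SE 0.07, 95% interval −0.13 to 0.15, adjusted p = 0.941). Both calls held under 22 of 23 alternatives and were lost after the length correction (0.14, adjusted p = 0.08 in D11, and 0.14, adjusted p = 0.0923 in WB1).

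**Figure D2:**
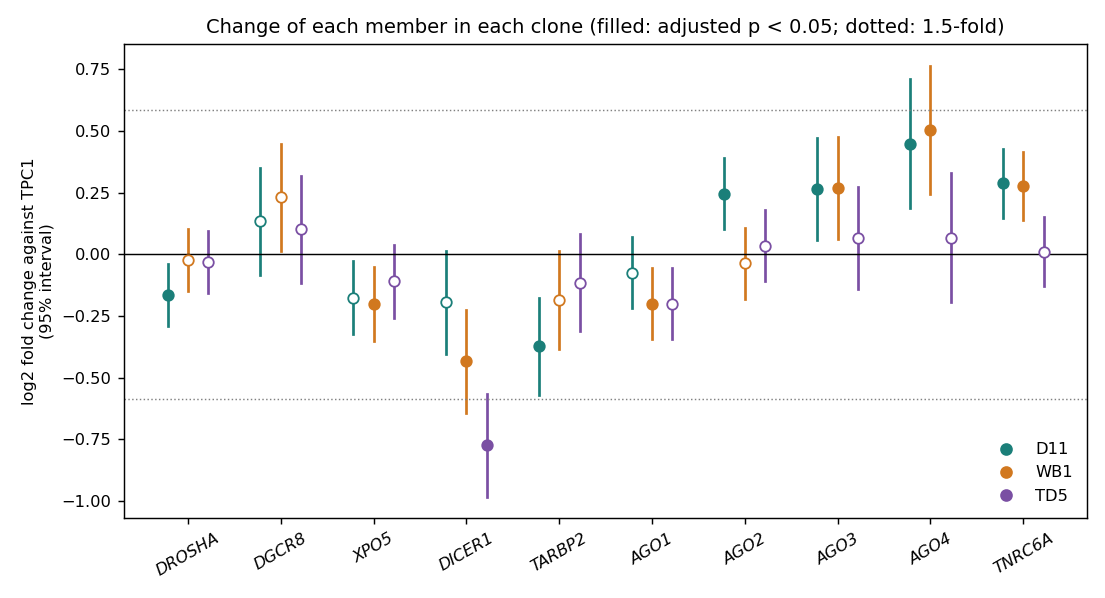
Log2 fold change against TPC1 (y axis) of each of the 10 genes (x axis) in D11, WB1 and TD5, with bars for the 95% interval of the limma model, filled points for an adjusted p under 0.05 and dotted lines at 1.5-fold. DICER1 stands at −0.19 in D11, −0.43 in WB1 and −0.77 in TD5, while AGO4 and TNRC6A are filled and above 0 in D11 and WB1 and near 0 in TD5.

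The plot of fold changes raises the question of whether the clones differed from each other, which was tested directly. WB1 and D11 differed in 1 of the 10 genes (8.07% of all genes), AGO2, lower in WB1 by a log2 value of −0.28 (SE 0.07, adjusted p = 0.0139). The DICER1 difference between WB1 and D11 did not pass (−0.24, SE 0.10, adjusted p = 0.178). TD5 and D11 differed in 4 of the 10 (23.2% of all genes), each lower in TD5. DICER1 was lower by −0.58 (SE 0.10, adjusted p = 0.000657), AGO4 by −0.38 (SE 0.12, adjusted p = 0.0342), TNRC6A by −0.28 (SE 0.07, adjusted p = 0.00687) and AGO2 by −0.21 (SE 0.07, adjusted p = 0.0333). TD5 and WB1 differed in 3 of the 10 (13.6% of all genes), again each lower in TD5, namely DICER1 (−0.34, SE 0.10, adjusted p = 0.0307), AGO4 (−0.44, SE 0.12, adjusted p = 0.0274) and TNRC6A (−0.27, SE 0.07, adjusted p = 0.0145). The DICER1 difference between TD5 and D11 held under all 23 alternatives. Both TNRC6A differences held under 22 and were lost after the length correction (−0.14, adjusted p = 0.106 against D11, and −0.13, adjusted p = 0.144 against WB1).

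The other 5 of these differences were lost in some alternatives. AGO2 in WB1 against D11 was lost without D11 replicate 2 or 3 or WB1 replicate 1 or 3 (adjusted p = 0.0589 to 0.0751). AGO2 in TD5 against D11 was lost without D11 replicate 2 or 3 or TD5 replicate 1 or 2 (adjusted p = 0.0889 to 0.131). It was also lost with the replicate number as a block (adjusted p = 0.0547), without a filter (adjusted p = 0.0684), with median-of-ratios scaling (−0.16, adjusted p = 0.0839) and after the GC correction (−0.14, adjusted p = 0.115). After the length correction nearly nothing of this AGO2 difference was left (−0.01, adjusted p = 0.899).

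AGO4 in TD5 against D11 was lost without any D11 replicate or TD5 replicate 2 (−0.39 to −0.20, adjusted p = 0.0685 to 0.183). The value of −0.20 was the one without TD5 replicate 2. The call was also lost without a filter (adjusted p = 0.0731), with D11 and TD5 alone in the model (adjusted p = 0.0797), with median-of-ratios scaling (−0.33, adjusted p = 0.0553), after the GC correction (−0.29, adjusted p = 0.079) and after the length correction (−0.26, adjusted p = 0.0953). AGO4 in TD5 against WB1 was lost without WB1 replicate 1 or 2 or TD5 replicate 2 (−0.44 to −0.26, adjusted p = 0.0776 to 0.125), again lowest in size without TD5 replicate 2. It was also lost without a filter (adjusted p = 0.0604), with WB1 and TD5 alone (adjusted p = 0.0822) and after the length correction (−0.32, adjusted p = 0.0569).

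DICER1 in TD5 against WB1 was lost without WB1 replicate 1 or 2 or TD5 replicate 1 or 2 (−0.34 to −0.27, adjusted p = 0.0879 to 0.128). It was also lost without a filter (adjusted p = 0.0674), with WB1 and TD5 alone (adjusted p = 0.0681), with the replicate block (adjusted p = 0.0529), after the GC correction (−0.18, adjusted p = 0.0768) and after the length correction (−0.18, adjusted p = 0.109).

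To compare the genes with each other, scaled reads were divided by the length of all exons of each gene together. These exons may include some that were not in the annotation used for counting. On this scale TPC1 ran from XPO5 at 407 ± 4.97 scaled reads per kb (SD, n = 3) and DROSHA at 203 ± 2.05 down to AGO3 at 12.3 ± 1.67. TARBP2 (170 ± 13.0) and AGO2 (163 ± 11.96) overlapped between their libraries, as did DGCR8 (128 ± 9.26) and TNRC6A (116 ± 11.1), and all other neighbours in the order were apart. AGO1 stood at 89.6 ± 6.23, DICER1 at 54.0 ± 6.42 and AGO4 at 32.3 ± 2.16. DICER1 was thus the third lowest of the 10 genes in the parental line on this length. The order depended on the length used. Per kb of the MANE Select transcript, which for DICER1 is 10384 bp beside 22151 bp of all exons, TPC1 had DICER1 at 115 ± 13.7 above AGO1 at 91.7 ± 6.38, and TARBP2 at 460.3 ± 35.2 above DROSHA at 292 ± 2.95, in each case with no overlap of libraries.

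Per kb of all exons, the order near the bottom differed between lines. DICER1 and AGO4 overlapped in D11 (47.0 ± 2.65 and 45.0 ± 1.197 scaled reads per kb) and in TD5 (31.3 ± 4.55 and 34.5 ± 7.998). In WB1 the AGO4 libraries (46.9 ± 2.41) were all above the DICER1 libraries (39.7 ± 2.80). Per kb of the MANE Select transcript this order was reversed, with DICER1 at 84.6 ± 5.98 and AGO4 at 47.9 ± 2.46 in WB1, and the DICER1 libraries lay above the AGO4 libraries in all 4 lines. AGO3 was lowest in every line, at 12.3 to 14.9 scaled reads per kb of all exons, and XPO5 highest, at 354 to 407, and both places held on the MANE Select length. In D11, AGO2 at 194 ± 7.83 stood above DROSHA at 181 ± 3.82, with no overlap of libraries, while on the MANE Select length DROSHA (260.03 ± 5.49) stood above AGO2 (210.5 ± 8.497).

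**Figure D3:**
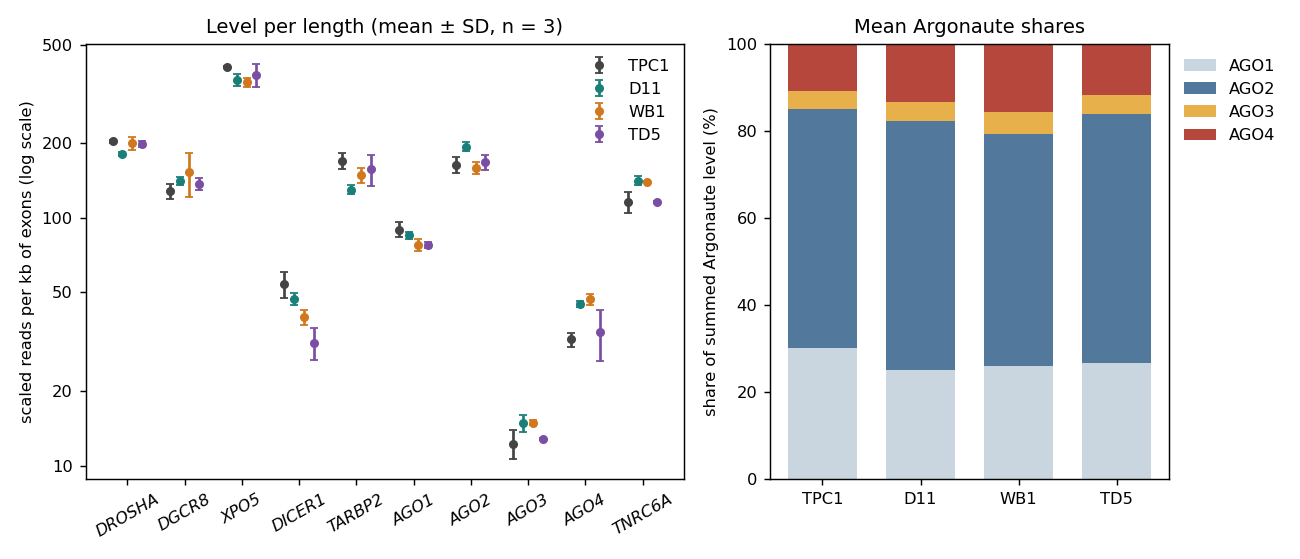
Left, scaled reads per kb of exons on a log axis for the 10 genes in the 4 lines, as means with bars of 1 SD (n = 3). Right, mean share in percent of each Argonaute gene in the summed Argonaute level per kb. XPO5 is highest and AGO3 lowest in every line, and the AGO4 share is 10.9% in TPC1 and 15.7% in WB1.

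The Argonaute level per length summed over the 4 genes was 298 ± 19.6 scaled reads per kb in TPC1 (SD, n = 3), 339 ± 5.79 in D11, 299 ± 10.5 in WB1 and 293 ± 19.7 in TD5. AGO2 made up 54.9% ± 0.791 of it in TPC1 (SD, n = 3), 57.2% ± 1.34 in D11, 53.3% ± 1.77 in WB1 and 57.3% ± 1.66 in TD5. The AGO4 share was 10.9% ± 0.732 in TPC1, 13.3% ± 0.277 in D11, 15.7% ± 0.743 in WB1 and 11.7% ± 2.16 in TD5. The AGO1 share was 30.1% ± 1.18 in TPC1 and 25.1% to 26.6% in the clones, and AGO3 made up 4.11% to 4.98% in all lines. These shares are within a library and do not depend on how libraries were scaled.

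Ratios of partners within a library are also free of the scaling. Neither the ratios nor the shares were corrected for GC content or transcript length. The ratio of DICER1 to AGO2 per kb was 0.347, 0.319 and 0.323 in TPC1, and below that in all 9 clone libraries, where it averaged 0.242 ± 0.00404 (D11), 0.249 ± 0.0103 (WB1) and 0.186 ± 0.0152 (TD5). In D11 AGO2 stood at 0.25 on the log2 scale and DICER1 at −0.19, of which only AGO2 passed. After the length correction these D11 values were 0.06 and −0.36, and only DICER1 passed. In WB1 and TD5 DICER1 was lower, while AGO2 stood at −0.04 and 0.04. The ratio of DICER1 to its partner TARBP2 was 0.319 ± 0.0463 in TPC1. D11 overlapped it with 0.362 ± 0.0281, WB1 overlapped it with 0.267 ± 0.0301, and TD5 lay below it with 0.203 ± 0.0522. In D11 DICER1 and TARBP2 stood at −0.19 and −0.37 on the log2 scale, and at −0.41 and −0.25 after the GC correction. DICER1 thus fell less than TARBP2 before that correction and more after it. DROSHA to DGCR8 was 1.59 ± 0.110 in TPC1 and lower, without overlap, in D11 (1.29 ± 0.0261) and WB1 (1.34 ± 0.190), while TD5 overlapped it (1.45 ± 0.115). XPO5 to DICER1 was 7.60 ± 0.848 in TPC1 and 12.4 ± 2.85 in TD5, where every library lay above TPC1. For this ratio D11 (7.70 ± 0.824) and WB1 (8.95 ± 0.850) overlapped TPC1. DICER1 to DROSHA was 0.266 ± 0.033 in TPC1, and D11 overlapped it (0.260 ± 0.0170). WB1 (0.199 ± 0.0245) and TD5 (0.158 ± 0.0275) lay below it.

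The direction of calls over all genes depended on the scaling. Of the genes called in D11, 59.8% were higher, against 43.8% with median-of-ratios scaling, 44.4% after the GC correction and 43.3% after the length correction. In WB1 60.2% were higher, against 42.2%, 46.6% and 43.6%. In TD5 44.8% were higher, against 43.6%, 49.4% and 46.9%. The 10 genes moved with this in part. With median-of-ratios scaling 3 were higher and 4 lower in D11, 2 higher and 3 lower in WB1, and 2 lower in TD5 (DICER1 and AGO1). After the length correction only AGO4 was higher in D11 and in WB1, and 5 and 4 genes were lower. None of the 10 genes turned its direction in any clone with these scalings and corrections.

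**Figure D4:**
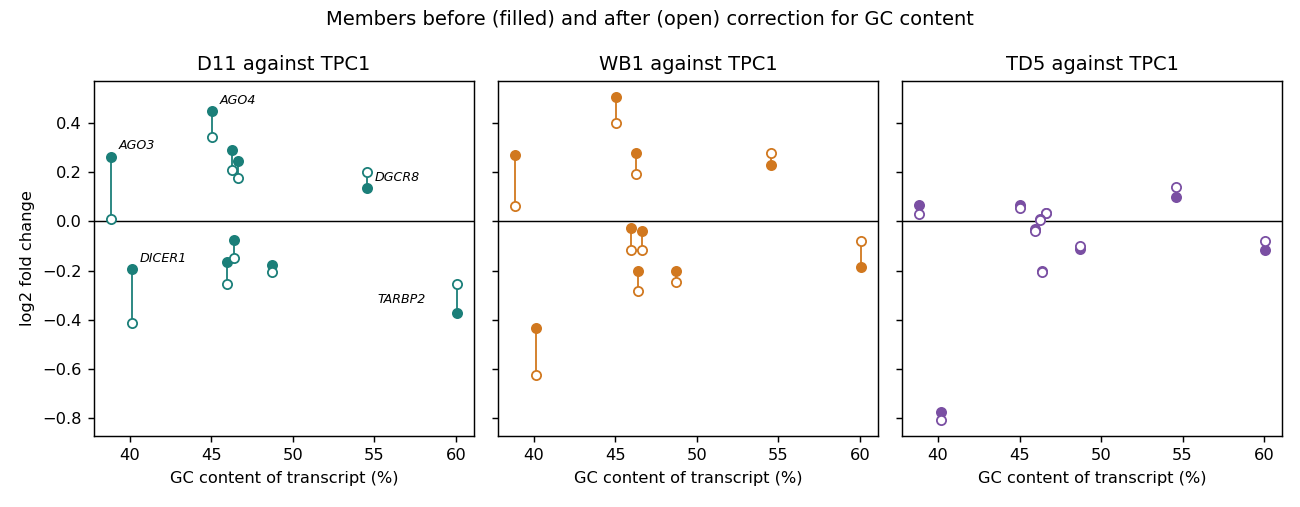
Log2 fold change against TPC1 (y axis) of the 10 genes by the GC content of their transcript in percent (x axis), before (filled) and after (open) each library was corrected for a trend with GC content, with 1 panel per clone. In D11 and WB1 the genes of lowest GC content, AGO3 and DICER1, shift down the most, and in TD5 the points hardly shift.

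Correction for GC content shifted the genes by their base composition, as the plot against GC content shows. DICER1, at 40.2% GC, went from −0.19 to −0.41 in D11 and from −0.43 to −0.62 in WB1, but only from −0.77 to −0.81 in TD5. TARBP2, at 60.1% GC the richest of the 10 transcripts, went the other way, from −0.37 to −0.25 in D11. With the correction DICER1 passed both thresholds in WB1. The difference in DICER1 between TD5 and WB1 went from −0.34 to −0.18 and no longer passed (adjusted p = 0.0768), while that between TD5 and D11 still did (−0.39). The part of base composition in the differences was not tested.

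Beyond the core genes, 4 lists of 81 further genes of the pathway were read in the same model, and 79 passed the filter. By limma 0 of the 79 passed both thresholds in any clone, while 28 in D11, 27 in WB1 and 6 in TD5 passed the adjusted p, and 42, 39 and 21 had an unadjusted p under 0.05. Over all genes tested, 33.3%, 30.9% and 11.9% passed the adjusted p in D11, WB1 and TD5. The counts of the lists in each direction stand beside 19.9% higher and 13.4% lower over all genes for D11, 18.6% and 12.3% for WB1, and 5.32% and 6.57% for TD5. CNOT6L came closest to the 1.5-fold limit, and it passed both in D11 with a pseudocount of 0.1 (0.59) and without TPC1 replicate 1 or 2 or D11 replicate 1 or 2 (0.59 to 0.60).

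Among 19 nuclear cofactors, which help DROSHA or bind primary transcripts, 4 were higher and 3 lower in D11, 2 higher and 3 lower in WB1, and 1 higher in TD5. The list medians were 0.07, 0.07 and 0.04 (−0.05, −0.07 and 0.04 after the GC correction). NCBP2, a subunit of the cap-binding complex, rose in D11 (0.29, SE 0.06, adjusted p = 0.00264). DDX17, a helicase of the DROSHA complex, rose in D11 (0.29, SE 0.06, adjusted p = 0.00366) and in WB1 (0.24, SE 0.06, adjusted p = 0.012). KHSRP, which binds the loop of some hairpins, fell by 0.19 in D11 (adjusted p = 0.0499) and by 0.24 in WB1 (adjusted p = 0.018). SRRT, which joins the cap-binding complex to the hairpin cutters, fell by 0.17 in D11 (adjusted p = 0.0351) and by 0.19 in WB1 (adjusted p = 0.0239). After the GC correction, of these calls only that of DDX17 in D11 remained (0.18, adjusted p = 0.0192), and NCBP2 stood at 0.09 (adjusted p = 0.149). The WB1 call of DDX17 was also lost with median-of-ratios scaling (adjusted p = 0.0517) and the length correction (adjusted p = 0.0647), and the replicate block ended the D11 calls of KHSRP (adjusted p = 0.0551) and SRRT (adjusted p = 0.054), as did the fit without a filter. That of KHSRP in D11 was lost as well with either other pseudocount and without the mitochondrially encoded genes in the sums (adjusted p = 0.0503 to 0.0607). Without TPC1 replicate 3 the calls of DDX17 in WB1 and of KHSRP and SRRT in both clones were lost (adjusted p = 0.072 to 0.233). KHSRP and SRRT were also lost in WB1 without WB1 replicate 2, and in D11 when TPC1 replicate 2, D11 replicate 1 or D11 replicate 3 was left out. For KHSRP in D11 this also held for D11 replicate 2 and WB1 replicate 1.

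Among 8 tested genes of DICER1 partners and precursor control, 1 was higher in D11, 2 in WB1 and 0 in TD5, where limma gave 2 an unadjusted p under 0.05. Over all genes 19.9% were higher in D11 and 18.6% in WB1, so with 8 genes these counts do not set the list apart. The medians were 0.12, 0.17 and −0.02 (−0.07, −0.03 and −0.04 after the GC correction). TUT4 and TUT7, listed under the older symbols ZCCHC11 and ZCCHC6, add uridines to hairpin precursors. TUT4 rose in D11 (0.27, SE 0.08, adjusted p = 0.0197) and TUT7 in WB1 (0.38, SE 0.10, adjusted p = 0.00951). BCDIN3D, which methylates the end of some precursors, rose in WB1 (0.34, SE 0.10, adjusted p = 0.0184). ZC3H12A, an RNase that can cut precursor loops, had −0.21, 0.23 and −0.22 in D11, WB1 and TD5 (adjusted p = 0.143 to 0.247). All 3 calls were lost without TPC1 replicate 3 and after the GC correction. They were also lost without D11 replicate 2 or 3 (TUT4) or WB1 replicate 2 (TUT7 and BCDIN3D), and that of BCDIN3D without WB1 replicate 3. The GC correction took TUT4 to 0.05, TUT7 to 0.20 and BCDIN3D to 0.23, and the length correction also ended the TUT4 call (0.15, adjusted p = 0.121). LIN28A and LIN28B, the blockers of let-7 precursors, lay at 0 to 2 scaled reads, at or below the level of 3 reads.

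Among 18 genes of Argonaute loading and turnover, 4 were higher and 4 lower in D11, 1 higher and 4 lower in WB1, and 2 lower in TD5. The medians were −0.02, −0.06 and −0.06 (−0.15, −0.13 and −0.09 after the GC correction). With that correction 0 were higher and 7 lower in D11, and 1 higher and 8 lower in WB1. Over all 15879 genes with the correction, 1683 were higher and 2107 lower in D11, and 1942 higher and 2221 lower in WB1. ANKRD52, a subunit of the phosphatase that acts on AGO2, fell in all 3 clones, by 0.26 in D11 (adjusted p = 0.00167), by 0.22 in WB1 (adjusted p = 0.00404) and by 0.21 in TD5 (adjusted p = 0.0121). FKBP4, a partner of the chaperone HSP90, fell by 0.32 in D11 (adjusted p = 0.00209) and by 0.23 in WB1 (adjusted p = 0.0147). HSP90AA1 itself, the chaperone used for loading, fell by 0.23 in TD5 (adjusted p = 0.00989). IPO8, an importin that binds Argonautes, rose in WB1 (0.33, SE 0.07, adjusted p = 0.002) and in D11 (0.19, SE 0.07, adjusted p = 0.0455). The IPO8 value turned to −0.01 in D11 and fell to 0.16 in WB1 (adjusted p = 0.0276) after the GC correction. The D11 call was lost without a filter, with the replicate block, with median-of-ratios scaling and with the length correction too (adjusted p = 0.068 to 0.317), and it was lost without any 1 of 8 libraries (all of TPC1 and D11, WB1 replicate 2, TD5 replicate 1; 0.15 to 0.21). The calls of ANKRD52 in TD5 and FKBP4 in WB1 were lost without TPC1 replicate 3, and also without TD5 replicate 1 and WB1 replicate 2 in turn (adjusted p = 0.0509 to 0.0615). With TD5 and TPC1 alone in the model the TD5 calls of ANKRD52 (adjusted p = 0.0711) and HSP90AA1 (adjusted p = 0.0574) were lost, that of ANKRD52 also after the length correction (adjusted p = 0.0513) and that of HSP90AA1 without a filter (adjusted p = 0.0609). ANKRD52 in D11 stood at −0.16 after the GC correction and −0.41 after the length correction, and in WB1 at −0.36 after the latter.

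The list of 34 silencing effectors holds TNRC6B, TNRC6C and enzymes, adaptors and other proteins linked to silencing. Of these, 9 were higher and 3 lower in D11, 8 higher and 7 lower in WB1, and 2 higher and 1 lower in TD5. The medians were 0.10, 0.05 and 0.04 (−0.03, −0.05 and 0.03 after the GC correction). CNOT6L, a deadenylase of the CCR4-NOT complex, rose in all 3 clones. TPC1 had 483, 487 and 437 scaled reads, D11 had 684, 675 and 758, WB1 had 661, 669 and 609, and TD5 had 582, 515 and 735. All 9 clone libraries lay above TPC1. Over all genes tested, 50.6%, 45.3% and 26.5% had no overlap with TPC1 in D11, WB1 and TD5, in either direction. The share of genes with all 9 clone libraries above TPC1 was not counted. The changes were 0.57 in D11 (SE 0.10, adjusted p = 0.000874), 0.45 in WB1 (SE 0.10, adjusted p = 0.00441) and 0.35 in TD5 (SE 0.10, adjusted p = 0.034). The TD5 call was lost without any TPC1 replicate or TD5 replicate 1 or 3 (0.22 to 0.38, adjusted p = 0.0518 to 0.153), with the replicate block (adjusted p = 0.0521), without a filter (adjusted p = 0.0708) and with TD5 and TPC1 alone in the model (adjusted p = 0.0903). The value of 0.22 was the one without TD5 replicate 3. The GC correction took CNOT6L from 0.57 to 0.26 in D11 (adjusted p = 0.0143) and from 0.45 to 0.21 in WB1 (adjusted p = 0.0389).

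PAN3, a subunit of the other deadenylase complex that TNRC6A recruits, rose in D11 (0.41, SE 0.10, adjusted p = 0.00478) and WB1 (0.42, SE 0.10, adjusted p = 0.00444). MOV10, a helicase found with Argonautes, fell by 0.33 in D11 (adjusted p = 0.00407) and by 0.32 in WB1 (adjusted p = 0.00542). CNOT11, another CCR4-NOT subunit, fell by 0.35 in WB1 (adjusted p = 0.00178). These 5 calls held under all 23 alternatives, though the GC correction took PAN3 to 0.23 in D11 and 0.25 in WB1.

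The genes whose levels followed DICER1 most closely over the 12 libraries, by Pearson's r of log2 values among 12242 genes, were PTX3 (0.942), ENTPD7 (0.935), AC092807.3 (0.933), ELL2 (0.932) and FAM26E (0.931). PTX3, a secreted pattern recognition protein, averaged 146 ± 28.4 scaled reads in TPC1 (SD, n = 3), 112 ± 4.93 in D11, 92.7 ± 10.0 in WB1 and 76.0 ± 4.36 in TD5. ENTPD7, a nucleotide-cleaving enzyme, averaged 2318 ± 147, 2082 ± 109, 1938 ± 109 and 1762 ± 74.5. The 12 libraries come from 4 lines and differed in depth, so r is no test here. Over the means of the 4 lines 0 of these 5 genes stayed among the top 5 (ranks 47 to 197). Of the other 9 core genes AGO1 was most like DICER1 (r = 0.797, rank 117), followed by AGO2 (0.350), and the rest lay between −0.21 and 0.18.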

How the data were processed

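RNA-seq of 12 libraries, 3 each of TPC1, D11, WB1 and TD5, was analysed, with lines taken from the sample titles. The authors prepared stranded messenger RNA libraries, mapped reads with STAR to GRCh38 and counted genes with HTSeq (versions 2.5.3a and 0.9.1 in the submitters' processing notes), on an Ensembl annotation. The strand setting of the counting is not given in the sources used here. The deposited values are a score, reads scaled to 20000000 per library and written as whole numbers, with sums of 20009833 to 20014191. The reads behind them were estimated from the steps between values, and the highest depth was 1.66 times the lowest.

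Because these are not raw counts, log2(value per 1000000 + 1) went into a model in limma (version 3.58.1, R 4.3.3) that had a mean-variance trend, 1 mean per line over all 12 libraries and Benjamini-Hochberg adjustment over 16027 of 58302 genes (at least 1 per 1000000 in at least 3 libraries). The code was tested on simulated data. The 10 genes and all lists were chosen with earlier results of these data known. The text names all 10 genes, 4 genes per wider list by the smallest F-test p, and the 5 genes most like DICER1. It also names the overlapping genes that passed the filter, as well as DICER1-AS1 and MIR3173. Positions and lengths are from GENCODE v44 on GRCh38, where 98.7% of genes were placed, and 99.1% of tested genes had a GC content. This is not the annotation release on which the authors counted reads, so the exons may differ. Lengths per kb are of all exons of a gene together. Alternatives changed the pseudocount (0.1 or 4), the filter, the libraries in the fit, the scaling, GC or length correction and a replicate block, and left out each library.

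Same-numbered libraries were compared by the correlation of their deviations from the line means. Only in D11 and TD5 were all 3 pairs over 0.1 (0.11, 0.17 and 0.35), and no source states a pairing. The main model has no block for any pair, and a model with the replicate number as a block is given beside the results whose call it changes. The siRNA experiment of the study was not analysed here, and a thyroid marker is not reported here. Summaries and plots were made in Python 3.11.15 (numpy 2.4.6, pandas 2.3.3, matplotlib 3.10.9).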

Additional observations from a re-analysis of the deposited data

Results flagged for a closer look

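Differences between clones passed the direct test for 4 of the 10 genes. DICER1 was lower in TD5 than in D11 (−0.58, adjusted p = 0.000657, limma) and than in WB1 (−0.34, adjusted p = 0.0307). AGO4 was lower in TD5 than in D11 (−0.38, adjusted p = 0.0342) and than in WB1 (−0.44, adjusted p = 0.0274). TNRC6A was lower in TD5 than in D11 (−0.28, adjusted p = 0.00687) and than in WB1 (−0.27, adjusted p = 0.0145). AGO2 was lower in WB1 than in D11 (−0.28, adjusted p = 0.0139), and also lower in TD5 than in D11 (−0.21, adjusted p = 0.0333), a difference that no longer passed with the replicate number as a block (adjusted p = 0.0547), nor did that of DICER1 between TD5 and WB1 (adjusted p = 0.0529). Of the 8 differences, 5 were lost in several other alternatives. Each clone is 1 clone with 3 libraries, so differences between clones and between alleles cannot be told apart, and their causes were not tested.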

How the results depend on the processing

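DICER1 kept its direction in all 3 clones under all 23 alternatives, with leave-one-out ranges of −0.25 to −0.10 in D11, −0.49 to −0.34 in WB1 and −0.89 to −0.68 in TD5. In D11 it passed the threshold with median-of-ratios scaling (−0.25), GC correction (−0.41, also with the replicate block) and length correction (−0.36). The number of the 10 genes past the adjusted p varied with 1 library left out. It was 3 to 7 in D11 (6 with all) and 3 to 6 in WB1 (6 with all). In TD5 it was 1 to 2 (1 with all), and in the F-test 3 to 7 (6 with all). Over all genes 3188 to 6022 passed in D11, 2941 to 5606 in WB1 and 1012 to 2548 in TD5. Between clones, differences were counted, and 1 gene can give more than 1. They numbered 4 to 10 (8 with all, from 4 genes). Without a filter 3 genes passed in WB1 (4123 of 34101 over all genes) and 4 differences between clones. In TD5 2 genes passed with median-of-ratios scaling (1963 of 16027 over all genes) and with GC correction (2763 of 15879), also with the block (2659 of 15879). Between clones 5 differences passed with only the lines compared, all of them among the 8. After the length correction 5 passed as well. Of the 8, only DICER1 in TD5 against D11 and AGO2 in WB1 against D11 were among these, and the others had no call in the main model. CNOT6L was the 1 wider-list gene past both thresholds in D11 with a pseudocount of 0.1 (0 to 1 with 1 library left out). Directions turned, with 1 library left out, only among differences without a call: DROSHA (−0.060 to 0.023) and AGO2 (−0.079 to 0.021) in WB1, and AGO2 (−0.019 to 0.093), AGO3 (−0.039 to 0.14), AGO4 (−0.070 to 0.25) and TNRC6A (−0.035 to 0.087) in TD5. IPO8 in D11 turned to −0.012 with GC correction, also with the block. The replicate block left 4 of the 10 genes past the adjusted p in D11, 5 in WB1 and 1 in TD5. Over all genes it left 4770, 4441 and 1611 of 16027. The block ended the calls of DROSHA and AGO3 in D11, AGO3 in WB1, AGO2 in TD5 against D11 and DICER1 in TD5 against WB1 (adjusted p = 0.0529), and no other call of the 10 genes. The causes were not tested. Lengths of the MANE Select transcript moved 3 of 16 Argonaute shares by more than 1 SD. Depth limits the precision of AGO3 and AGO4, whose counting error per library, averaged over a line, was up to 7.53%.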
